A study of Mus musculus with 36 samples.

Results

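The data described here are the RNA-seq libraries of C/EBPα WT cells between 1 and 6 hr post induction (hpi), chosen by construct and timepoint alone. They are 6 of 36 libraries, 2 replicates at each of 1, 3 and 6 hpi, and the comparison turns on the 4 libraries at 1 and 6 hpi. Primary B cells from the bone marrow of C57BL/6J mice received, by retroviral infection, C/EBPα fused to the estrogen receptor and a human CD4 marker, enriched for hCD4, and cultured on mitomycin-inactivated mouse embryo fibroblasts with IL-7, IL-3, FLT3, CSF-1 and SCF. Addition of E2 (estradiol), which moves the fusion protein into the nucleus, started B cell to macrophage transdifferentiation (BMT). Later changes of medium left out IL-7, and feeder cells were removed by differential adherence before RNA extraction. The 0 hpi cells carry the fusion protein without E2. The R35A and R35K cells used for comparison carry the same fusion with the arginine at position 35 replaced by alanine or lysine. All cells express a retroviral transgene in a mixed infected culture and not a single clone, and the labels do not say whether the 2 replicates of a group came from different mice, so p-values measure the spread between these samples, which may be technical.

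C/EBPα is a bZip transcription factor of the myeloid lineage. In B cells it acts together with PU.1, silencing genes kept on by B cell factors such as Pax5 and Ebf1 and switching on genes of monocytes and macrophages. The interval from 1 to 6 hpi follows the first response to its nuclear entry.

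Between 1 and 6 hpi the groups with the most members called all fell, namely MHC class II genes, genes of the pre-B cell receptor and B cell surface, and genes of DNA replication and mitosis. Macrophage genes such as Mrc1, Msr1 and Lyz2, which had risen in the first hour, dipped at 3 hpi and were still below their 1 hpi level at 6 hpi. Under a second choice of library factors, given below, 0 replication and 0 mitosis genes were called. There 7 MHC class II and 7 pre-B cell receptor and surface genes were called lower, and Lyz2 lost its call. Single genes known from myeloid cells, such as Mmp8, F13a1 and C3, rose instead. Of 16988 genes tested, 831 (4.89%) were called, meaning at least a 1.5-fold difference in either direction with p no higher than 0.05 after Benjamini-Hochberg adjustment in edgeR's quasi-likelihood test. Of these, 314 were higher at 6 hpi (1.85% of genes tested) and 517 were lower (3.04%). The median size of a called change was 1.76-fold for the genes that rose and 1.72-fold for those that fell, and 105 and 137 genes passed 2-fold.

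**Figure D1:**
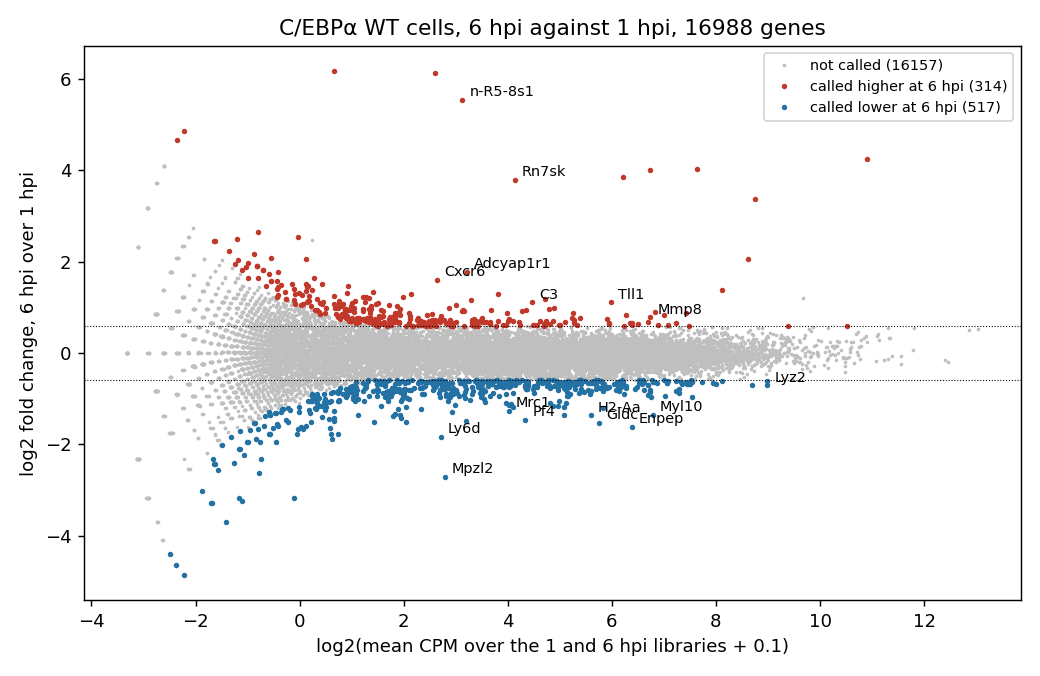
Log2 fold change from 1 to 6 hpi in C/EBPα WT cells (vertical axis) against the log2 of the mean level in CPM (counts scaled to library size) plus 0.1 (horizontal axis), 1 point per gene, with 2 libraries per timepoint. Red points are the 314 genes called higher at 6 hpi, blue the 517 called lower and grey those not called, and the dotted lines mark 1.5-fold. Mpzl2 and Ly6d lie lowest among the labelled genes, and the labelled points n-R5-8s1 and Rn7sk near the top rest on 1 library.

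These libraries hold 14160103 to 16242497 counts each. The following facts of the libraries touch the values below. WT 6 hpi replicate 1 held 11360 CPM of ribosomal and small non-coding RNA, against 858 to 1038 CPM in the other 5 libraries from 1 to 6 hpi. The rises of n-R5-8s1 and Rn7sk from 1 to 6 hpi, the largest by fold among the named genes, and those of CT010467.1 and mt-Rnr1 from 3 to 6 hpi, rest on this library: Rn7sk, a small nuclear RNA, read 2.52 and 2.147 CPM at 1 hpi and 62.5 and 2.80 CPM at 6 hpi, and n-R5-8s1, a 5.8S rRNA gene, read 0.341 and 0.358 CPM and then 33.2 and 0.559 CPM. Of the 831 called genes 8 belong to these RNA classes, 7 of them higher. The summed level of 20 feeder fibroblast markers, such as collagens, rose from 23470 to 23521 CPM at 1 hpi through 28105 to 28118 CPM at 3 hpi to 31010 to 31914 CPM at 6 hpi, and none of the 20 was at 3 counts or fewer in these libraries. Their median log2 change was 0.27, with 0 called higher and 1 (Lum) called lower. Fn1 and Thbs1 made up much of this sum. Without these genes it was 10424 to 10451 CPM at 1 hpi and 12748 to 13000 CPM at 6 hpi. At 120 hpi the full sum was 25714 to 25928 CPM, and 360 to 394 CPM without Fn1 and Thbs1, so the full sum is not a measure of feeder cells alone. In turn 20 genes that leukocytes share, such as Ptprc (CD45), fell together from 3553 to 3581 CPM at 1 hpi to 2899 to 2923 CPM at 6 hpi, with a median log2 change of -0.32. In bulk RNA, fewer cells of a type and less RNA per cell cannot be told apart.

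For that reason each result was also computed with the library factors set by those 20 leukocyte genes, a choice made after the data were seen. This moved the median log2 change of all tested genes from -0.04 to 0.33, a shift of 0.37, and gave 2488 genes higher and 104 lower in place of 314 and 517. With DESeq2 size factors the split was 402 higher and 407 lower. The number called in each direction thus depends on the factors. Many groups that lose calls or turn direction under the leukocyte factors are named as such below, though not all. They are to be read against the median of all genes under the same factors.

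**Figure D2:**
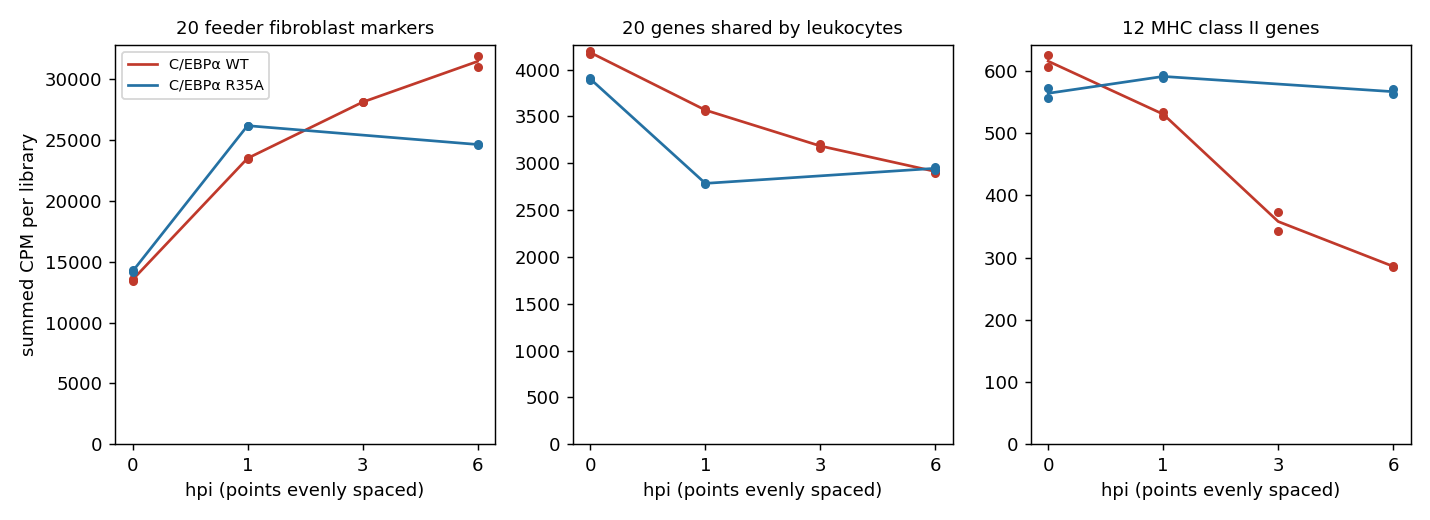
Summed CPM per library (points, 2 per timepoint) and group mean (lines) of 20 feeder fibroblast markers, 20 genes shared by leukocytes and 12 MHC class II genes, in C/EBPα WT cells (red) at 0, 1, 3 and 6 hpi and in R35A cells (blue) at 0, 1 and 6 hpi, with axes that start at 0. Feeder markers rise through 6 hpi in WT cells and not after 1 hpi in R35A cells, and the MHC class II sum falls in WT cells from 527 and 534 CPM at 1 hpi to 287 and 285 CPM at 6 hpi.

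B cell markers and macrophage markers were both present. The summed level of 7 B cell markers was 1745 to 1747 CPM at 1 hpi and 1282 to 1286 CPM at 6 hpi, against 3677 to 3702 CPM at 0 hpi. The sum of 6 macrophage markers was 869 to 879 CPM at 1 hpi, 541 to 553 CPM at 3 hpi and 568 to 573 CPM at 6 hpi, against 54.1 to 54.9 CPM at 0 hpi and 16928 to 17284 CPM at 120 hpi. T cell, NK cell, erythroid and neutrophil markers summed to less than 1 CPM each in every library of the window, with Cd3e, Cd3g, Ncr1, Klrb1c, Hba-a1 and Ly6g at 3 counts or fewer. The pair of mast cell and basophil markers summed to 15.3 to 17.6 CPM in these libraries, with Cpa3 at 3 counts or fewer, and to 7.98 to 9.14 CPM at 0 hpi. Cebpa itself, whose reads can include the transgene, stood at 109 and 105 CPM at 1 hpi and at 93.4 and 87.4 CPM at 6 hpi, less than a 1.5-fold difference.

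Promoters of the 3 groups that fell together are shown first, so that their sequences can be set beside the values. MHC class II promoters are known for a conserved module that includes an inverted CCAAT box, replication genes for sites of E2F factors, and genes of G2 and mitosis for the CHR element that is bound in resting cells. Each window runs from 250 bases before to 50 after the gene's start in RefSeq, build GRCm38.p6 (mm10), 5′ to 3′ on the gene's strand. The gene coordinates given with the values come from GENCODE, whose start can differ, and for Mcm5 the window ends before it. The genes shown are the called members with the highest 1 hpi level whose promoter was on hand and held the motif. Capitals mark CCAAT or ATTGG in H2-Aa and H2-Eb1, TTTNNCGC or its reverse complement in Mcm5 and Mcm6, where matches overlap, and TTTGAA or TTCAAA in Top2a and Kif11.
H2-Aa (chr17:34287774-34288073, minus strand): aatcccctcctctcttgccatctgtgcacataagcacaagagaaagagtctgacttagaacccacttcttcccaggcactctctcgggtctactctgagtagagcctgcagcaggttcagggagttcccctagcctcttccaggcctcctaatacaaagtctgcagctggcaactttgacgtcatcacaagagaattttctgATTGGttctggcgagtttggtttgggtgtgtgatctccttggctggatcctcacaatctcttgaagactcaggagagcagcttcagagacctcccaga
H2-Eb1 (chr17:34305617-34305916, plus strand): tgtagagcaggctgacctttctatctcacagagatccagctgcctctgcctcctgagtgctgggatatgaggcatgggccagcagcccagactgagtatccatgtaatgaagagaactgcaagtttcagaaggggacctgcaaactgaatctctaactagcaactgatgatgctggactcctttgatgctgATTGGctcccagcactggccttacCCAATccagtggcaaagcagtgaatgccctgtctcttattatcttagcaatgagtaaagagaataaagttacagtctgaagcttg
Mcm5 (chr8:75109259-75109558, plus strand): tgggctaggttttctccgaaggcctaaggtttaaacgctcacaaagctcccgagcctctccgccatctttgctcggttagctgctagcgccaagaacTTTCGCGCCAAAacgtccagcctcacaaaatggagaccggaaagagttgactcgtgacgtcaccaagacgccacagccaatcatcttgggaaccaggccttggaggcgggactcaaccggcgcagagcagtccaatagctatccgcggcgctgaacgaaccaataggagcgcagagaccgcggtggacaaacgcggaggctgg
Mcm6 (chr1:128359656-128359955, minus strand): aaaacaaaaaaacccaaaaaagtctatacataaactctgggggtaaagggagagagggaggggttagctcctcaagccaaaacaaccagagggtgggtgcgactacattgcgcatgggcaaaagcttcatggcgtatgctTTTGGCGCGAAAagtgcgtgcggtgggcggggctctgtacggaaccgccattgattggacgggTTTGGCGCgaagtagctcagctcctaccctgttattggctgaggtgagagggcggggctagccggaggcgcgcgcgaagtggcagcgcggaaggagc
Top2a (chr11:99024140-99024439, minus strand): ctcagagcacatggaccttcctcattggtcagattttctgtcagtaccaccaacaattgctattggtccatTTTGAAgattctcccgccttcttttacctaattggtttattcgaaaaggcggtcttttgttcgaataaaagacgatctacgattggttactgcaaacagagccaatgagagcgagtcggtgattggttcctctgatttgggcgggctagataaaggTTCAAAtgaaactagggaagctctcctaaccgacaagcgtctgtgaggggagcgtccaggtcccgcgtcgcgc
Kif11 (chr19:37376132-37376431, plus strand): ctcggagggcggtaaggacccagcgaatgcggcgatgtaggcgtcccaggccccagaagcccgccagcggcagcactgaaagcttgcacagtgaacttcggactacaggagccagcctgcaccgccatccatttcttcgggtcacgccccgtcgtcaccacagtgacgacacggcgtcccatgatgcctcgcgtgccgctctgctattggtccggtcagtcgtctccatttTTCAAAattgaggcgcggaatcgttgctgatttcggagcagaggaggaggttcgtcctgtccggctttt
CCAAT on either strand stood in 7 of the 9 tested MHC class II promoters on hand (77.8%), against 37.9% of all 27025 promoters of this length. The E2F-type TTTNNCGC stood in 15 of 40 replication promoters (37.5%), in 2 of 35 mitosis promoters and in 5.27% of all. TTTGAA stood in 27 of 35 mitosis promoters (77.1%), in 5 of 40 replication promoters and in 18.11% of all. CCAAT was also present in 27 of the 35 mitosis promoters, so this motif does not set the MHC genes apart. These are matches of letters in a fixed window and no measure of binding.

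MHC class II genes gave the strongest shared fall. These genes encode the α and β chains that present peptides to CD4 T cells, the H2-DM and H2-DO chaperones that load them, the invariant chain Cd74, the protease Ctss and the master regulator Ciita. Of 12 genes tested, 9 were called lower and 0 higher, all 12 had a negative log2 change, and the median was -1.08 against -0.04 over all tested genes. Under the leukocyte factors 7 were called lower and the median was -0.71.

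H2-Aa, an α chain (chr17:34282744-34287823), read 69.3 and 69.4 CPM at 1 hpi, 39.6 and 42.8 CPM at 3 hpi and 24.9 and 29.1 CPM at 6 hpi, a log2 change of -1.36 ± 0.07 (SE) from 1 to 6 hpi (adjusted p = 5.8e-33). Its partner H2-Ab1 (chr17:34257689-34269419) read 45.6 and 48.3 CPM at 1 hpi, 33.0 and 33.3 CPM at 3 hpi and 21.3 and 22.7 CPM at 6 hpi. For both chains no library of 1 timepoint overlapped one of another, and 3 hpi lay between. The libraries at 1 and 6 hpi also did not overlap for 10912 of all 16988 tested genes. H2-Eb1 went from 39.2 and 40.6 CPM to 18.17 and 17.8 CPM, and Cd74 from 203 CPM in both libraries to 113 and 110 CPM. Ciita, the regulator of the group, read 5.05 and 5.13 CPM at 1 hpi and 2.65 and 2.24 CPM at 6 hpi, with a log2 change of -1.06 ± 0.20. The chaperone genes H2-Oa, H2-Ob and H2-DMb2 were called lower too, at log2 changes of -1.50, -1.11 and -1.42. The members not called were H2-DMa (-0.27), H2-DMb1 (-0.48) and H2-Eb2 (-0.64). At 0 hpi H2-Aa stood at 63.1 and 64.1 CPM, close to the level of 1 hpi, but this did not hold for the group. From 0 to 1 hpi 6 of the 12 were called lower and 1 higher, with a median of -0.59, and H2-Ab1 went from 72.8 and 74.5 CPM to its 1 hpi level, a log2 change of -0.65.

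The genes between the class II genes on chromosome 17 moved less. Within chr17:34092340-34341412, 15 genes were tested and 6 were called, all of them class II genes. Psmb8 and Psmb9, subunits of the immunoproteasome, Tap1 and Tap2, which carry peptides to class I molecules, and the chromatin reader Brd2 lie among them and had log2 changes of -0.47, -0.34, -0.13, -0.03 and -0.16, and none of these 5 was called. H2-DMa overlaps Brd2 in the annotation, so reads there may be shared.

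Genes of the pre-B cell receptor and B cell surface fell as a group, with 18 of 39 called lower, 1 called higher and a median log2 change of -0.59. Under the leukocyte factors 7 were called lower and 2 higher, and the median was -0.22. Enpep, the aminopeptidase known as BP-1 that marks pre-B cells (chr3:129269175-129332720), read 123 and 128 CPM at 1 hpi, 81.9 and 79.1 CPM at 3 hpi and 40.7 and 41.4 CPM at 6 hpi, a 3.05-fold fall (log2 change -1.61 ± 0.05, adjusted p = 9.4e-48). Ly6d, a surface marker of the B lineage (chr15:74762056-74763620), read 9.69 and 10.5 CPM and then 2.85 and 2.80 CPM. The surrogate light chain gene Vpreb2 read 10.8 and 10.4 CPM and then 3.91 and 4.78 CPM, with most of the difference present at 3 hpi (5.67 and 4.98 CPM). The 1 and 6 hpi libraries of these 3 genes did not overlap, which the rule for naming genes by size required.

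Other members of this list were called lower as well. Dntt, the template-free polymerase of V(D)J joining, went from 46.3 and 47.3 CPM to 20.4 and 21.1 CPM. The recombinase genes Rag1 and Rag2 had log2 changes of -0.75 and -0.94 and the kinase gene Blk -1.05. The surrogate light chain gene Igll1, at 399 and 403 CPM and then 302 and 300 CPM, had a log2 change of -0.41, which passed the adjusted p and not the fold. Among 20 B cell signature genes that the study lists, without stating whether they were chosen on these samples, so that they are not taken as independent evidence of direction, 9 were called lower and 0 higher, with a median of -0.47. With the leukocyte factors 2 of them were called lower.

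Of 25 B lineage transcription factors, 4 were called lower (Irf4, Myb, Ikzf3 and Ebf1) and 1 higher (Ikzf2), with a median log2 change of -0.15. Under the leukocyte factors 0 were called lower and 3 higher, and the median was 0.22. Myb, needed for lymphoid progenitors, read 190 and 195 CPM at 1 hpi and 110 and 106 CPM at 6 hpi, and Ebf1, which specifies the B lineage, 218 and 217 CPM and then 135 and 138 CPM. Pax5, the factor that holds B cell identity, read 263 and 260 CPM at 1 hpi, 254 and 257 CPM at 3 hpi and 217 and 230 CPM at 6 hpi, a log2 change of -0.22 that did not reach 1.5-fold. From 0 to 1 hpi the same transcript had gone from 875 and 883 CPM to that 1 hpi level.

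Several of the steepest falls were outside these lists. Mpzl2, an adhesion protein of the immunoglobulin family (chr9:45039799-45054015), showed the largest named fall, from 11.9 and 11.7 CPM at 1 hpi through 5.34 and 5.63 CPM at 3 hpi to 1.33 and 2.24 CPM at 6 hpi (log2 change -2.71 ± 0.18, adjusted p = 4.7e-25). Gldc, a mitochondrial enzyme of glycine breakdown, kept most of its level to 3 hpi, with 81.1 and 79.5 CPM at 1 hpi, 65.1 and 64.1 CPM at 3 hpi and 29.8 and 26.3 CPM at 6 hpi. Myl10, a myosin light chain, read 161 and 154 CPM, then 111 and 112 CPM, then 61.1 and 62.7 CPM. Carmil2, Bfsp2 and Crhbp were further genes outside the lists named by size of fall, at log2 changes of -1.36, -1.48 and -1.18. In these 6 genes the 3 hpi libraries lay between those of 1 and 6 hpi, and at 120 hpi their mean level was below 10% of that at 0 hpi.

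Genes of DNA replication fell in concert, with 25 of 50 called lower, 0 higher, and a negative log2 change in all 50 (median -0.58). Mcm5, a subunit of the replicative helicase (chr8:75109569-75128439), read 228 and 220 CPM at 1 hpi, 188 and 195 CPM at 3 hpi and 136 and 144 CPM at 6 hpi (log2 change -0.68 ± 0.04, adjusted p = 3.5e-29). Mcm6, another subunit, read 205 and 214 CPM at 1 hpi and 135 CPM in both 6 hpi libraries. Lig1, the DNA ligase that joins Okazaki fragments, had a log2 change of -0.78, Pole2, a polymerase subunit, -0.89, and Mcm2 -0.70. Both 6 hpi libraries lay under both 1 hpi libraries for these genes, as for all 517 genes called lower.

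Mitosis genes behaved alike, with 16 of 42 called lower, 0 higher, all 42 negative and a median of -0.53. With DESeq2 size factors, and in each of 4 other alternatives, 9 were called. Top2a, the topoisomerase that untangles chromosomes, read 515 and 518 CPM at 1 hpi, 415 and 414 CPM at 3 hpi and 310 and 321 CPM at 6 hpi. Kif11, a spindle motor, went from 195 and 202 CPM to 111 and 119 CPM, and Cdk1, the mitotic kinase, from 113 CPM in both libraries to 73.0 and 69.7 CPM. The changes of both lists were small for each gene, with 0 members past 2-fold. Under the leukocyte factors 0 replication and 0 mitosis genes were called, and the medians were -0.21 and -0.17, still negative where the median of all genes was 0.33. The G1 cyclins, kinases and inhibitors did not share the calls, with 0 of 19 called and a median of -0.12. Of 28 chromatin genes 1 was called lower, Ezh2, the methyltransferase of Polycomb complex 2, from 89.2 and 90.4 CPM to 51.8 and 48.8 CPM. Under the leukocyte factors 0 of the 28 were called lower and 4 higher.

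**Figure D3:**
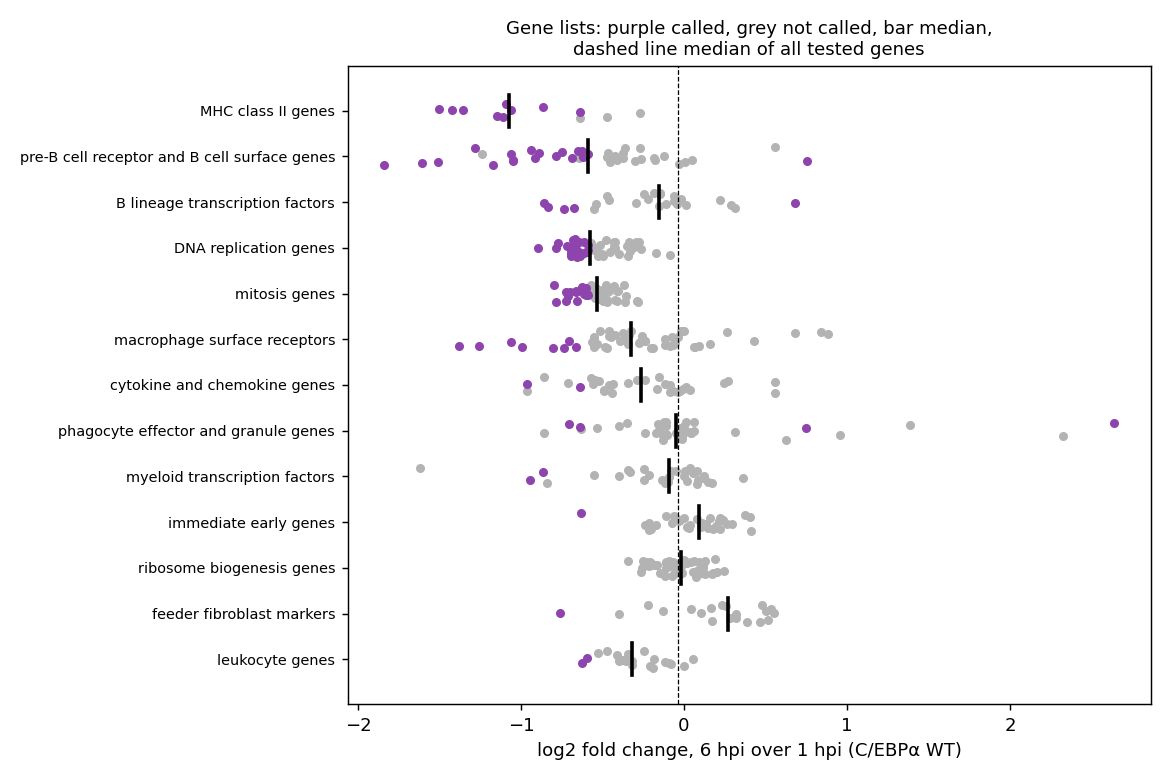
Log2 fold change from 1 to 6 hpi of the members of 13 gene lists in C/EBPα WT cells, 1 point per tested gene, purple where called and grey where not, with a bar at each list's median and a dashed line at the median of all tested genes. MHC class II genes lie farthest left with a median of -1.08, replication and mitosis genes form tight groups left of the line, and feeder fibroblast markers lie to its right. Under the leukocyte factors all points move right by about 0.37. The medians of B lineage and myeloid transcription factors, macrophage surface receptors, cytokines, phagocyte genes, ribosome biogenesis genes and leukocyte genes then lie above 0.

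Macrophage surface receptor genes dipped after the first hour. Of 51 macrophage surface receptor genes tested, 8 were called lower at 6 than at 1 hpi and 0 higher, with a median log2 change of -0.32 that turned to 0.04 under the leukocyte factors, where 3 were called lower and 4 higher. The dip lay in the first step: from 1 to 3 hpi 16 of the 51 were called lower and 0 higher (median -0.49), and from 3 to 6 hpi 0 were called in either direction (median 0.16). The 2 steps share the 3 hpi libraries, so these counts are not independent. Over all genes tested, 0.695% were called lower and 0.383% higher from 1 to 3 hpi.

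Mrc1, the mannose receptor of macrophages (chr2:14229392-14332057), read 1.62 and 2.61 CPM at 0 hpi, 23.4 and 21.9 CPM at 1 hpi, 12.0 and 10.5 CPM at 3 hpi, 9.35 and 9.57 CPM at 6 hpi and 15.2 and 16.3 CPM at 18 hpi, before 2474 and 2566 CPM at 120 hpi. It was thus induced, cut by 2.39-fold between 1 and 6 hpi, and only later raised to its macrophage level. Msr1, a scavenger receptor, read 29.1 CPM in both libraries at 1 hpi, 14.5 and 14.9 CPM at 3 hpi and 19.3 and 16.5 CPM at 6 hpi. The innate receptor gene Tlr8 read 5.66 and 5.49 CPM, then 2.67 and 2.02 CPM, then 2.72 and 2.86 CPM. Cd36, Clec12a, Trem2, Clec4a2 and Siglece were the other receptors called lower at 6 hpi, at log2 changes of -0.81, -1.06, -0.74, -0.66 and -1.38. The CSF-1 receptor gene Csf1r dipped by less, with 115 and 117 CPM, 77.3 and 82.5 CPM and 92.4 and 87.2 CPM at 1, 3 and 6 hpi (log2 change -0.36 from 1 to 6 hpi), and Itgam, which encodes Mac-1, with 20.3 and 20.8 CPM, 15.4 and 13.6 CPM and 17.6 and 18.14 CPM (-0.20). Neither of these reached 1.5-fold between 1 and 6 hpi.

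Single genes for secreted products also dipped. Lyz2, which encodes lysozyme (chr10:117277331-117282321), read 632 and 624 CPM at 1 hpi, 373 and 380 CPM at 3 hpi and 386 and 385 CPM at 6 hpi (log2 change -0.70 ± 0.03, adjusted p = 1.1e-23). The platelet factor gene Pf4 fell further, from 28.6 and 30.5 CPM through 15.4 and 15.5 CPM to 11.2 and 10.3 CPM. The complement gene C1qc went from 8.32 and 8.65 CPM to 3.71 and 4.97 CPM. Of 32 cytokine and chemokine genes, Cxcl2 and Tnf were called lower and 0 higher, with a median of -0.26. Under the leukocyte factors the median was 0.10, with 1 called lower and 4 higher. Tnf read 10.8 CPM in both 1 hpi libraries, 6.25 and 5.40 CPM at 3 hpi and 7.29 and 6.59 CPM at 6 hpi. Of 37 phagocyte effector and granule genes, 2 were called lower (Lyz2 and Ctss) and 2 higher (Prtn3 and Lcn2). Under the leukocyte factors 0 of the 37 were called lower, so Lyz2 and Ctss lost their calls, and 2 were called higher. Of 20 macrophage signature genes that the study lists, 2 were called lower (C1qc and Trem2) and 1 higher, and under the leukocyte factors 1 was called lower and 4 higher.

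The libraries at 0 and 120 hpi, which are outside the contrast but entered the count filter and the fit, place these genes. Of the 517 genes called lower from 1 to 6 hpi, 67 (12.96%) had a mean level at 120 hpi above 10 times that at 0 hpi, against 5.63% of all tested genes. Of the 314 called higher, 17 (5.41%) did. Genes with few counts from 1 to 6 hpi could pass the count filter through their 120 hpi level alone, so these shares are descriptive only. Among the 67, 54 stood higher at 18 than at 6 hpi. The 67 were chosen in part for a low level in those 6 hpi libraries, so no result is read from this count. Genes of the first kind with at least 5 CPM number 32, and besides those above they include Cd52, Cfp (properdin), C3ar1, Lpl (lipoprotein lipase), Ms4a6c and C1qb.

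**Figure D4:**
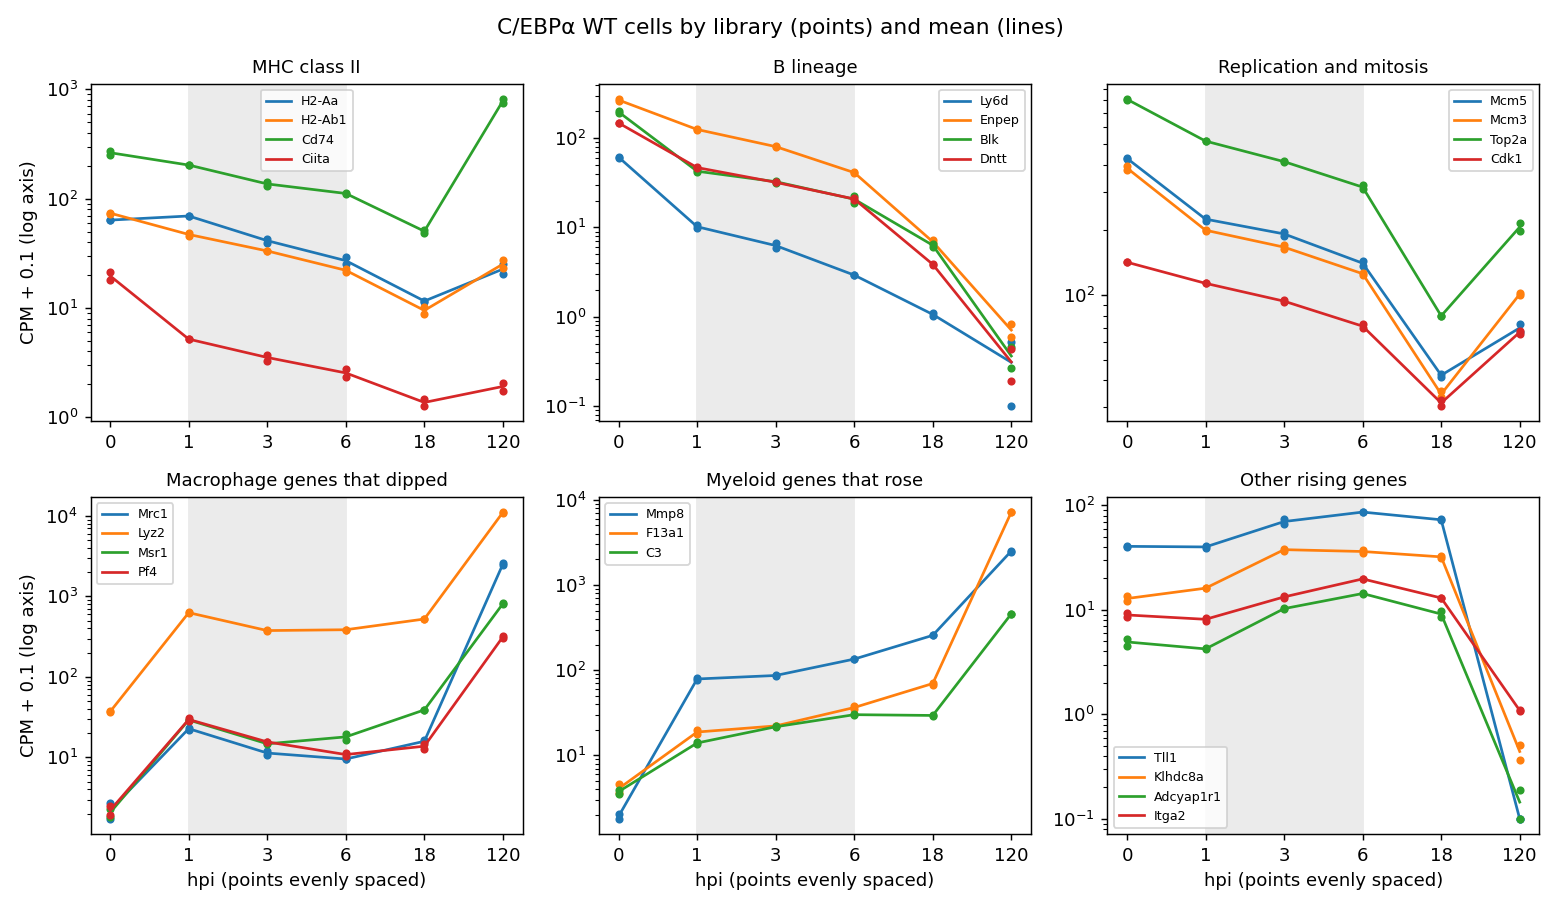
Level of selected genes in C/EBPα WT cells at all 6 timepoints from 0 to 120 hpi, as CPM plus 0.1 on a log axis, with a point for each of 2 libraries and a line through their mean, the interval from 1 to 6 hpi shaded and timepoints evenly spaced. B lineage, MHC class II and cell cycle genes fall through the shaded interval, Mrc1, Lyz2, Msr1 and Pf4 dip there and climb by 120 hpi, Mmp8, F13a1 and C3 rise in it, and Tll1, Klhdc8a, Adcyap1r1 and Itga2 rise in it and are near 0 or 1 CPM at 120 hpi.

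Some genes whose level ended far higher at 120 hpi rose already from 1 to 6 hpi. They are described as single genes, chosen after their values were seen, and such genes were no larger a share of the genes called higher (5.41%) than of all tested genes (5.63%). Mmp8, a collagenase stored in neutrophil granules (chr9:7558456-7568485), read 1.696 and 1.96 CPM at 0 hpi, 79.8 and 77.6 CPM at 1 hpi, 84.7 and 88.4 CPM at 3 hpi and 135 and 134 CPM at 6 hpi (log2 change 0.78 ± 0.04, adjusted p = 1.4e-30). F13a1, a coagulation factor subunit made by monocytes (chr13:36867178-37050244), read 17.9 and 19.5 CPM, 21.8 and 22.3 CPM and 35.1 and 37.5 CPM at 1, 3 and 6 hpi. For both genes the rise fell mostly between 3 and 6 hpi. The complement gene C3 climbed evenly, with 14.3 and 13.4 CPM, 21.2 and 21.9 CPM and 30.1 and 29.8 CPM. Slpi, an inhibitor of granule proteases named by its size of change, went from 5.32 and 6.68 CPM to 13.3 and 13.6 CPM. Cyth4, Il1r2, Pi16 and Mmp13, whose levels also end far higher at 120 hpi, had log2 changes of 0.78, 0.71, 0.75 and 0.63. Prtn3, a granule protease, was at 3 counts or fewer in both 1 hpi libraries and at 0.729 and 0.932 CPM at 6 hpi, so no fold is given. Of 13 neutrophil markers tested, Mmp8 and Prtn3 were the 2 called, while Ly6g, Elane, Retnlg, Cxcr2 and Cd177 were at 3 counts or fewer throughout.

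The other named rises are given next. Of the 314 genes called higher, 129 (41.1%) had a mean level at 120 hpi below 10% of that at 0 hpi, against 12.7% of all tested genes and 30.8% of the genes called lower. The count filter also used the 0 hpi libraries, so these shares are descriptive only. Adcyap1r1, a receptor for the neuropeptide PACAP (chr6:55451978-55501451), had the largest rise that both libraries shared among the genes named by size, which had at least 5 CPM on average, from 4.09 and 4.17 CPM through 10.2 and 10.1 CPM to 14.4 and 14.1 CPM (3.44-fold, adjusted p = 1.2e-20). Tll1, a metalloprotease that processes procollagen (chr8:64014931-64206271), read 40.6 and 39.3 CPM, then 66.0 and 74.0 CPM, then 86.3 and 86.1 CPM, and was at 0 in both 120 hpi libraries. The integrin gene Itga2 went from 7.71 and 8.35 CPM to 19.7 CPM in both, and Klhdc8a from 16.0 CPM in both to 35.1 and 37.2 CPM. Cxcr6, Shank2, Olr1 and Acta1 had log2 changes of 1.60, 1.05, 0.99 and 0.99. Feeder markers moved with these genes over the same libraries: Col1a1, the main chain of type I collagen, read 721 and 724 CPM at 1 hpi, 918 and 954 CPM at 3 hpi and 1018 and 1074 CPM at 6 hpi, and was at 31.8 and 22.9 CPM at 120 hpi. Col1a1 thus rose 1.45-fold from 1 to 6 hpi, and the part of feeder RNA in the named rises was not tested.

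Most of the other lists showed little. No gene was called among 52 ribosome biogenesis genes (median -0.02), 26 cholesterol genes (-0.13), 30 amino acid stress genes (-0.00), 20 heat shock genes (-0.06), 22 NF-kB feedback genes (-0.07), 15 Bcl2 family genes (0.02) or 5 erythroid, mast cell and basophil genes (0.04). These counts of 0 hold for edgeR with the main library factors and the 1.5-fold threshold. Under the leukocyte factors 1 ribosome biogenesis, 5 amino acid stress, 2 heat shock, 2 NF-kB feedback and 2 Bcl2 family genes were called higher. So were 3 of the G1 genes described above. By adjusted p alone 5464 of all tested genes differed, among them 12 lower and 8 higher ribosome biogenesis genes, 6 and 0 cholesterol genes, 6 and 8 amino acid stress genes, 6 and 1 heat shock genes, 6 and 4 NF-kB genes, 1 and 1 Bcl2 family genes and 9 and 4 G1 genes. Of 36 immediate early genes 1 was called lower, Dusp2, and the median was 0.09. Single calls were also made among glycolysis genes (Slc16a1, the lactate carrier, -0.83), p53 targets (Ddb2, -0.61), actin and adhesion genes (Itga4, -0.60), cytokine feedback genes (Il1r2, 0.71) and the 5 tested T and NK cell genes (Lck, -0.68). Of 31 myeloid transcription factors Tfec and Gfi1 were called lower (-0.94 and -0.87). Of 34 interferon-stimulated genes Oas1a and Gbp2 were called lower, and the median of -0.29 turned to 0.08 under the leukocyte factors, where 0 were called. Lipid efflux and storage genes gave 2 calls (Cd36 and Lpl, both lower) and eicosanoid enzymes 2 (Hpgds lower and Alox12 higher). In the immediate early, glycolysis, p53, actin, T and NK, myeloid factor, lipid and eicosanoid lists 0 were called lower under the leukocyte factors. Called higher then were 7 immediate early, 3 glycolysis, 6 p53, 9 actin, 4 cytokine feedback, 1 myeloid factor, 2 lipid and 3 eicosanoid genes. With DESeq2 size factors 0 p53, actin and eicosanoid genes were called lower.

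The point between shows when the changes took place. From 1 to 3 hpi 183 genes were called (1.08%), 65 higher and 118 lower, and from 3 to 6 hpi 176 (1.04%), 80 higher (0.471%) and 96 lower (0.565%). The second count fell to 111 without WT 3 hpi replicate 2 and to 117 without WT 6 hpi replicate 1. The first hour had moved more, with 3395 genes called from 0 to 1 hpi (20.0%), 1823 higher (10.7%) and 1572 lower (9.25%). Of the genes called from 1 to 6 hpi, 483 of 517 that fell (93.4%) and 276 of 314 that rose (87.9%) had a 3 hpi mean between the means of 1 and 6 hpi, against 55.0% of all tested genes. Called genes were chosen for means that lie apart, which leaves more room between them, so the gap between these shares says nothing of timing. Called genes with a 3 hpi mean outside include Klhdc8a, which had risen in full by 3 hpi (36.7 and 38.5 CPM), and the macrophage genes Lyz2 and Msr1. Agtr2, an angiotensin receptor, held its level until 3 hpi, with 17.2 and 15.6 CPM at 1 hpi, 16.7 and 14.7 CPM at 3 hpi and 8.82 and 8.26 CPM at 6 hpi. Dach1, a transcription factor, read 5.93 and 6.38 CPM, 5.41 and 5.10 CPM and 9.08 and 8.39 CPM. The chemokine gene Ccl3 dipped and returned, with 13.3 and 14.3 CPM, 10.8 and 10.97 CPM and 16.3 and 17.0 CPM, and Ccl9 was level to 3 hpi and then rose, from 106 and 103 CPM to 159 and 156 CPM.

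Cells with the R35A and R35K constructs allow the same contrast in libraries that share none with the WT cells. In R35A cells 97 genes (0.571%) were called from 1 to 6 hpi, and in R35K cells 308 of 16434 (1.87%). Of the 314 WT rises 10 were also called higher in R35A cells, which is 3.18% of the WT list and 24.4% of the 41 R35A rises. Of the 517 WT falls 11 were called lower in R35A cells, 2.13% of the WT list and 19.6% of 56. The WT falls had a median log2 change of -0.11 in R35A and -0.23 in R35K cells, and the WT rises one of 0.02 and 0.25. In R35K cells 27 of the rises (8.60% of the WT list) and 41 of the falls (7.93%) were called in the same direction. They are 15.2% of the 178 R35K rises and 31.5% of the 130 R35K falls. Over all genes tested, these 178 and 130 calls were among 16434 genes, and the 41 and 56 R35A calls among 16988. Levels at 1 hpi differed before the interval began: 7 B cell markers summed to 512 to 519 CPM in R35A cells and 1745 to 1747 CPM in WT cells, and 6 macrophage markers to 3742 to 3761 CPM and 869 to 879 CPM.

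The difference itself, the change in WT cells minus that in R35A cells, was called for 645 genes (3.80%), 301 (1.77%) with the more positive change in WT cells and 344 (2.02%) with the more negative. Of the 12 MHC class II genes 8 were in the second class and 0 in the first, with a median difference of -1.02 on the log2 scale. H2-Aa read 26.7 and 25.6 CPM at 1 hpi and 26.5 and 26.4 CPM at 6 hpi in R35A cells, a level that WT cells reached at 6 hpi, at 24.9 and 29.1 CPM. Of the 50 replication genes 7, of the 42 mitosis genes 8, and of the 39 pre-B cell receptor and surface genes 15 were in the second class, with 0 in the first. Feeder markers differed too, with 3 of 20 in the first class. Their sum went from 26176 to 26180 CPM at 1 hpi to 24582 to 24683 CPM at 6 hpi in R35A cells, against the rise given above in WT cells, and the part of this in the difference was not tested. Without Fn1 and Thbs1 the R35A sum went from 10524 to 10528 CPM at 1 hpi to 9627 to 9660 CPM at 6 hpi. With DESeq2 size factors the split was 394 and 253, and with the leukocyte factors 2889 genes were in the first class and 64 in the second.

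**Figure D5:**
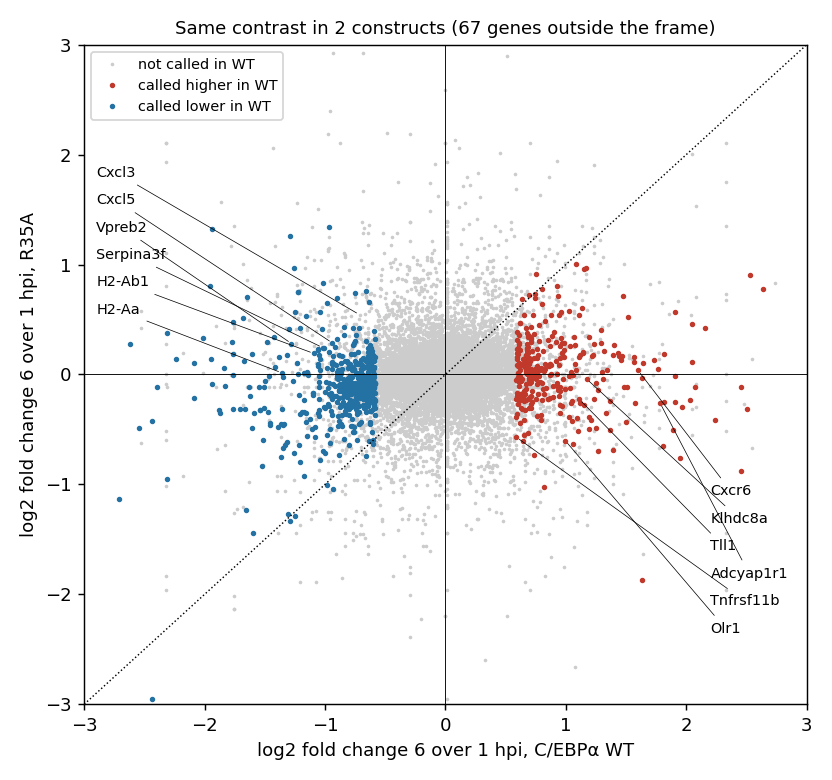
Log2 fold change from 1 to 6 hpi in C/EBPα WT cells (horizontal axis) and in R35A cells (vertical axis), 1 point per gene, coloured by the call in WT cells, with the dotted line at equal change and 67 genes outside the frame. Points called in WT cells spread along the horizontal axis near 0 on the vertical one. H2-Aa stands at -1.36 in WT and 0.01 in R35A cells, and Adcyap1r1 at 1.78 and -0.26.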

How the data were processed

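RNA-seq was measured in all 36 libraries, of which the 12 WT and 12 R35A libraries enter the main test and the 12 R35K libraries a test of their own. The authors aligned single-end reads of stranded poly(A) libraries to mm10 with STAR 2.5.0a, after FastQC, and deposited raw counts per gene from STAR for 40354 genes. The annotation release and the strand column are not given in the sources used here, so genes that overlap or face each other may share reads. They also deposited log2 values from DESeq2 1.14.1 for 19067 genes. In 100% of values these equal the log2 of the count divided by a size factor plus 1, and they serve only as an alternative here. No column was left unassigned, and every group was set from the sample titles.

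Counts were tested with edgeR 4.0.16 (quasi-likelihood F test, robust, TMM factors, filterByExpr, R 4.3.3, limma 3.58.1) over the 24 WT and R35A libraries and 12 groups, leaving 16988 genes with a common biological coefficient of variation of 3.17%. The R35K libraries were fitted alone, with 16434 genes and 3.49%. A gene was called at a fold of at least 1.5 in either direction with p no higher than 0.05 after Benjamini-Hochberg adjustment. SEs come from the F statistic. CPM are TMM-scaled and not divided by gene length. A level of 3 counts or fewer in every library of a group was treated as the detection floor, which covers counting error only. The median squared difference between replicates was 1.09 to 2.28 times that of counting noise over the 12 groups, so no pair was counted as 1 library. At WT 1, 3 and 6 hpi it was 1.11, 1.48 and 1.25 times, little above counting noise. The labels give no sequencing dates or batches. Genes were named as the 12 largest called changes per direction (5 for each step, 6 for the WT minus R35A difference) with at least 5 CPM on average and, for changes within WT cells, no overlap of libraries, leaving out predicted genes, plus called members of the lists. Genes named only for their later level, their step or their place on the chromosome were chosen after their values were seen. The comparison, the 31 gene lists and the tests were chosen with earlier results of these data known, and the 20 leukocyte genes and the factors from them after the data were seen. Some called list members are not reported here. Promoters and motifs were searched by letters on both strands. The scripts were tested on simulated data. Alternatives, run for the WT and R35A libraries and not for R35K, were DESeq2 1.42.0, its size factors, other filters and thresholds, other fits, a replicate block and each library left out.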

Additional observations from a re-analysis of the deposited data

Results flagged for a closer look

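The results taken up here are those whose change from 1 to 6 hpi differed between WT and R35A cells by the test of the difference itself, 645 genes in all. Among genes with at least 5 CPM the more negative changes in WT cells were led by Vpreb2 (difference of log2 changes -1.56), H2-Aa (-1.37), H2-Ab1 (-1.28), Serpina3f (-1.26), Cxcl3 (-1.26) and Cxcl5 (-1.22). In R35A cells Vpreb2 stood at 2.54 and 2.14 CPM at 1 hpi and at 2.88 and 2.82 CPM at 6 hpi, and H2-Ab1 at 19.2 and 16.2 CPM and then 18.9 and 21.3 CPM, all below the WT levels at 1 hpi. Cxcl5, a chemokine for neutrophils, fell in WT cells from 46.1 and 47.2 CPM to 25.4 and 23.4 CPM, and read 49.5 and 43.6 CPM and then 55.3 and 58.1 CPM in R35A cells. Cxcl3 was near 1 to 2 CPM in WT cells, was not called there (adjusted p = 0.066), and its difference lost its call without WT 6 hpi replicate 2 (adjusted p = 0.0789).

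The more positive changes were led by Adcyap1r1 (2.04), Olr1 (1.60), Cxcr6 (1.56), Tll1 (1.34), Klhdc8a (1.21) and Tnfrsf11b (1.16). Tnfrsf11b, which encodes the decoy receptor osteoprotegerin, read 20.1 and 21.3 CPM and then 32.3 and 30.1 CPM in WT cells, and 40.3 and 39.4 CPM and then 26.9 and 26.7 CPM in R35A cells. Olr1, a receptor for oxidised LDL, read 19.2 and 20.3 CPM and then 40.8 and 37.9 CPM in WT cells, and 84.4 and 83.0 CPM and then 56.0 and 54.4 CPM in R35A cells. All 12 differences kept their direction and their call under the leukocyte factors. The feeder marker sum moved in the same directions as this second set over the same libraries, and its part was not tested.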

How the results depend on the processing

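The count of 831 genes from 1 to 6 hpi was 242 at 2-fold (105 higher, 137 lower) and 2592 with the leukocyte factors (2488 higher, 104 lower), and a DESeq2 Wald test gave 586 with 316 lower. From 1 to 3 hpi 183 became 47 at 2-fold, 459 by unadjusted p, 89 by DESeq2 and 429 with the leukocyte factors, and from 3 to 6 hpi 176 became 63, 437, 66 and 375. At 2-fold 1708 of 3395 genes remained from 0 to 1 hpi, and the 97 R35A genes became 30 at 2-fold, 357 by unadjusted p and 49 by DESeq2. The 645 differences between WT and R35A cells became 216 at 2-fold (117 and 99), 1032 by unadjusted p (498 and 534), 406 by DESeq2 (182 more negative) and 2953 with the leukocyte factors (2889 and 64). Leaving out 1 library at a time gave 715 to 764 genes from 1 to 6 hpi (264 to 288 higher, 451 to 493 lower), 128 to 161 from 1 to 3 hpi, 111 to 141 from 3 to 6 hpi, 3158 to 3238 from 0 to 1 hpi, 69 to 80 in R35A cells and 553 to 607 for the difference (242 to 317 and 250 to 330), and a lone library is then assumed to vary like the other groups. The cause of these shifts was not tested beyond the alternatives' own construction, a higher fold, an unadjusted p or fewer libraries. Of 359 values of the 24 named genes 347 kept their direction and call, 12 kept the direction alone and 0 reversed. Of those 12, 10 belong to n-R5-8s1 and Rn7sk, whose log2 changes were 0.67 and 0.27 without WT 6 hpi replicate 1, and the other 2 to Olr1 and Acta1 at the 2-fold threshold. Same-numbered replicates were not paired, since their deviations correlated at 0.02 between 1 and 6 hpi, -0.03 between 1 and 3 hpi and 0.04 between 3 and 6 hpi, and the replicate block gave 829 genes (316 higher, 513 lower). Depth limits genes under about 1 CPM, where few counts make large folds.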

Other observations

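Some of the chemokine genes that lie side by side on chromosome 5 fell together. In chr5:90759360-90905938, 7 genes were tested and 3 were called lower from 1 to 6 hpi in WT cells: Pf4 (log2 change -1.46), Cxcl2 (-0.97) and Cxcl5 (-0.94). Ppbp, which lies between Cxcl5 and Pf4, had -0.37, Cxcl3 -0.71, Cxcl15 -0.42 and Cxcl1 -0.24, and none of these 4 was called. All 7 were lower at 6 than at 1 hpi. Under the leukocyte factors Cxcl1 and Ppbp turned to 0.13 and 0.00, and Cxcl5, at -0.57, fell short of 1.5-fold. Pf4 and Cxcl2 were then at -1.09 and -0.60, and Cxcl3 and Cxcl15 at -0.35 and -0.06. In R35A cells Cxcl5, Ppbp, Cxcl3, Cxcl1 and Cxcl2 had log2 changes of 0.29, 0.46, 0.54, 0.13 and 0.20, and Pf4 and Cxcl15 -0.46 and -0.11. The window was chosen after the values were seen.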
